A study of Homo sapiens with 12 samples.

Results

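The genes described here encode the antigen receptor machinery of T cells: the CD3 chains CD3E, CD3D and CD3G, the zeta chain CD247, the co-receptors CD4 and CD8A, the costimulatory receptor CD28 and its inhibitory relative CTLA4, and the early T-lineage surface proteins CD5 and CD7. They were chosen as 10 genes in 8 fixed hg19 windows, with CD3E, CD3D and CD3G sharing 1 window, and every KDM2B peak that overlapped a window by at least 1 bp was taken. The 8 windows span 343 kb, from 14 kb at CD7 to 98 kb at CD247, and held 42 of the 79473 peaks in the 7 lists. These peaks fell into 19 merged regions, a region being a stretch in which peaks of any lists overlap.

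The antigen receptor proper carries no long cytoplasmic tail, and the CD3 and zeta chains supply the motifs that LCK phosphorylates and ZAP70 binds. CD4 and CD8 bring LCK to the complex, CD28 adds a second signal, and CTLA4 competes with CD28 for the same ligands. KDM2B is a chromatin protein with a CXXC zinc finger that recognises CG dinucleotides without methylation, and it recruits a PRC1-type Polycomb complex, so its usual sites are CG-rich promoters. It removes methyl groups from histone H3 through a JmjC domain.

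KDM2B was immunoprecipitated with 1 antibody from human leukaemia cell lines grown in IMDM with FBS, with no treatment listed, and sequenced (ChIP-seq). The lines of T-cell acute lymphoblastic leukaemia (abbreviated T-ALL) were DND41, HPB-ALL, JURKAT and SIL-ALL (n = 4), and the other lines were K562, from a chronic myeloid leukaemia, and the B-cell precursor lines REH and SUP-B15 (n = 3 together). These lineages are background knowledge and are not in the labels, and peak lists hold no expression by which a line could be checked. Each line had 1 library and 1 list, so a site of a line and a site of its library cannot be told apart, and each p-value rests on the spread of lines and of their libraries at once. The lists held 12765 to 15304 peaks in the T-ALL lines and 5942 to 8146 in the other lines, the read depth behind them is unknown, and the lowest score listed was 60 in DND41, about 50 in JURKAT and 80 in both HPB-ALL and SIL-ALL, against about 50 in all 3 other lines.

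The promoters of these genes differ in the CG dinucleotides that the CXXC finger reads, and 4 of them are shown for that reason. RefSeq promoter sequences (GRCh38.p14, 250 bases before to 50 after a gene start) were matched for 5 of the 10 genes, with 8 sequences in all because CD8A has 4 annotated starts. Capitals mark each CG, which reads the same on both strands. CTLA4 is shown as the gene whose window had no peak, CD247 as the gene with most peaks, CD28 for a site found in both a T-ALL and a B-cell precursor line, and CD8A, at its outermost start, for sites in HPB-ALL and JURKAT.
CTLA4 promoter (chr2:203867521-203867820, + strand): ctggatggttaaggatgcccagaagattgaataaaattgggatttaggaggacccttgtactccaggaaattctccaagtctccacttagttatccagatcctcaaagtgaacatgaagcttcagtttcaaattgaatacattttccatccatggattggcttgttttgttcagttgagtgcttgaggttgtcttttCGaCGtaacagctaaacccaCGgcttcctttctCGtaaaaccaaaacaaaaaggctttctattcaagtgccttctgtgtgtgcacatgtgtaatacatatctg
CD247 promoter (chr1:167518480-167518779, - strand): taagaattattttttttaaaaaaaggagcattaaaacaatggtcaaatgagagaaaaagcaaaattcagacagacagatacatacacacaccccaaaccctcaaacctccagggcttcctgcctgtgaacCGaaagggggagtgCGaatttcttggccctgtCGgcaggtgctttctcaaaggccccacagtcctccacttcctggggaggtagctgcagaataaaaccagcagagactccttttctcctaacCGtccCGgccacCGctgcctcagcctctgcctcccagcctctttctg
CD28 promoter (chr2:203706389-203706688, + strand): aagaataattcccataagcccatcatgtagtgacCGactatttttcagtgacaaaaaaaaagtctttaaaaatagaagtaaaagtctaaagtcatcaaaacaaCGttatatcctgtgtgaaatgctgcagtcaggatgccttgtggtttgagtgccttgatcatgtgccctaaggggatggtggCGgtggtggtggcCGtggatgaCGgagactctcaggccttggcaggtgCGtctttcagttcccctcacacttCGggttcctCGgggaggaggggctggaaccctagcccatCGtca
CD8A promoter (chr2:86808347-86808646, - strand): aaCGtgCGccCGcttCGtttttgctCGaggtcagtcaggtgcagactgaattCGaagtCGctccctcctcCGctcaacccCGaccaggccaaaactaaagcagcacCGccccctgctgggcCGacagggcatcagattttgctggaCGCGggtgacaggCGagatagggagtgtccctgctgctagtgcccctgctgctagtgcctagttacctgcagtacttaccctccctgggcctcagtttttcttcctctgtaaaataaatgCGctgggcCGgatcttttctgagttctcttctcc

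CTLA4 had the fewest CG dinucleotides of the matched promoters, 4, followed by CD3D with 5, CD247 with 6 and CD28 with 9. The CD8A promoters had 6, 16, 18 and 25. Over all 35116 promoters of the table the median was 14 (quartiles 4 and 28), and 96.0% held at least 1 CG. The 4 genes CTLA4, CD3D, CD247 and CD28 were thus below the median, and CD8A alone had starts above it, with 25 CG at the richest, a number that 32% of all promoters reach. The ratio of observed to expected CG was 0.33 at CTLA4, 0.25 at CD3D, 0.34 at CD247, 0.52 at CD28 and 0.24 to 0.84 at CD8A, against a median of 0.58 over all promoters. The sequences belong to another build than the peaks, so no peak was placed on them, and methylation was not measured.

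**Figure D1:**
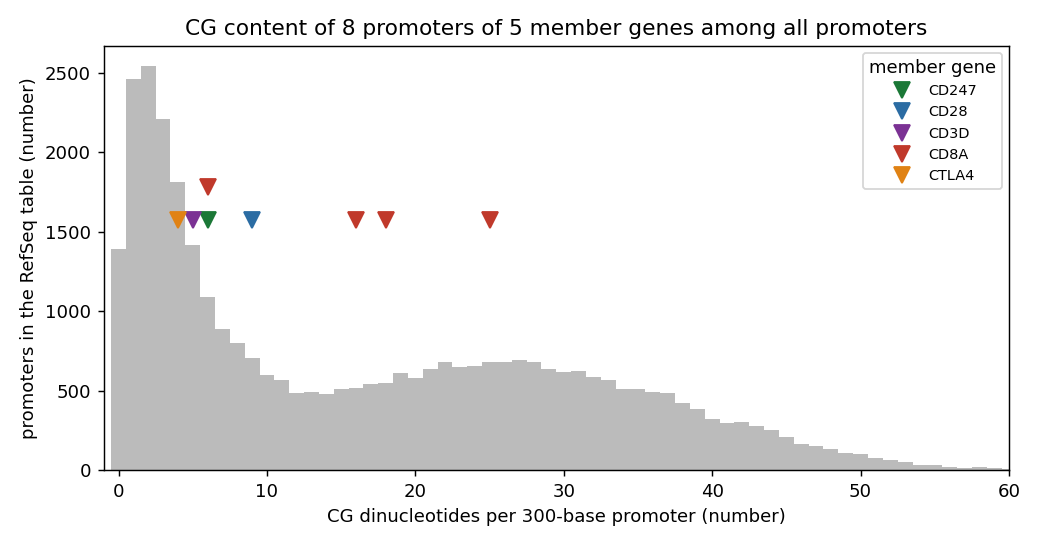
The number of CG dinucleotides per promoter of 300 bases (horizontal axis) is shown for all 35116 RefSeq promoters as grey bars (vertical axis: number of promoters). Triangles mark the 8 promoters of 5 member genes at their CG number, their height having no meaning, and CTLA4, CD3D, CD247 and CD28 lie at 4 to 9 while 3 of the 4 CD8A promoters lie at 16 to 25.

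KDM2B peaks were most numerous at CD247, the longest window, and absent at CTLA4, and HPB-ALL had the most of any line. Of the 42 peaks, 17 lay in the CD247 window, 7 in the CD3 window, 7 in the CD8A window, 5 in the CD7 window, 3 in the CD28 window, 2 in the CD4 window and 1 in the CD5 window, and the CTLA4 window had none in any list. HPB-ALL had 14 peaks in 6 of the 8 windows, JURKAT 8 in 3, DND41 6 in 4 and SIL-ALL 6 in 4, while REH had 3 in 3, SUP-B15 3 in 2 and K562 2 in 2. CD247 was the single window with a peak of every line. Per 10 kb of window over all lists, CD7 had most peaks, 3.57, followed by CD8A with 2.0 and CD247 with 1.73. The CD3 window had 1.19, CD28 0.714, CD4 0.476 and CD5 0.278.

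As background, the hg19 genome (chromosomes 1 to 22 and X) was tiled in stretches of 39 kb, the median window length, and the share of tiles with a peak was counted in each list. From high to low it was 9.58% in JURKAT, 9.47% in SIL-ALL, 8.77% in DND41 and 8.57% in HPB-ALL among the T-ALL lines, and 6.02% in REH, 5.45% in SUP-B15 and 5.14% in K562 among the others. The share of the 8 windows with a peak was thus above the genome's in each line, with 2 windows as the lowest count (K562 and SUP-B15). Per length, HPB-ALL had 40.8 peaks per Mb of the windows against 4.2 per Mb of the genome, JURKAT 23.3 against 4.89, DND41 17.5 against 4.92 and SIL-ALL 17.5 against 5.04. REH had 8.75 against 2.68, SUP-B15 8.75 against 2.48 and K562 5.83 against 1.96. Each window was built around a gene and the tiles include gene-poor stretches, so these ratios do not set T-cell genes apart from other genes.

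**Figure D2:**
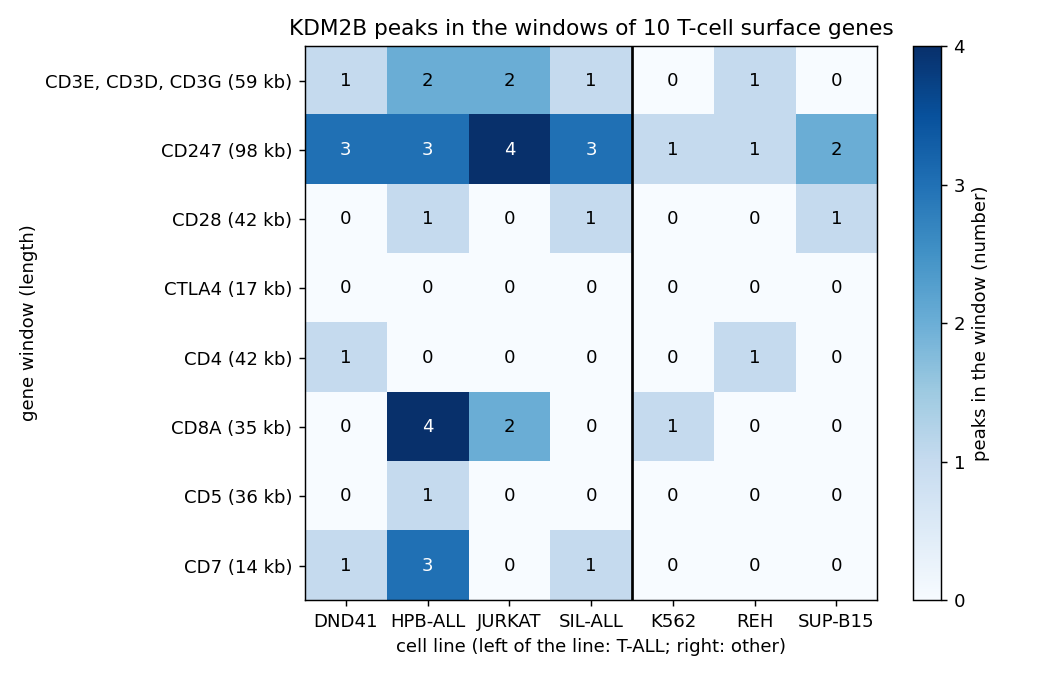
Each cell gives the number of KDM2B peaks (colour scale, 0 to 4) in a gene window (rows, with the window length) in 1 cell line (columns, T-ALL lines left of the black line). The CD247 row is filled in all 7 lines, the CTLA4 row is 0 throughout, and the CD5 and CD7 rows hold peaks in T-ALL lines alone.

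The CD3 cluster held a site listed in all 4 T-ALL lines and in REH, which fewer lines kept with lists of equal length or with 1 score floor. CD3E, CD3D and CD3G pair into the epsilon-delta and epsilon-gamma dimers of the receptor, and their window (chromosome 11, 118170000 to 118229000) contained 2 peaks in HPB-ALL and JURKAT and 1 in DND41 and SIL-ALL, against 1 in REH and 0 in K562 and SUP-B15. The mean was 1.5 ± 0.577 peaks in the T-ALL lines (SD, n = 4) and 0.333 ± 0.577 in the other lines (SD, n = 3). The groups overlapped, since REH equalled DND41 and SIL-ALL, and the difference of 1.17 peaks did not pass the threshold of 0.05 (exact permutation p = 0.171, two-sided). With each list limited to its 5942 top-scored peaks, the length of the K562 list, the difference was 0.5 (exact permutation p = 0.429). At least 5 lines, as in this window, had a peak anywhere in the tile in 6.9% of all tiles of its length.

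The shared CD3 site spanned 118187155 to 118187710, 17.4 kb from the low edge of the window. Its authors' score stood at percentile 84.9 of the list in JURKAT, 77.3 in HPB-ALL, 33.9 in SIL-ALL and 29.2 in DND41, against 6.48 in REH, where the score was 51.0, close to the lowest of that list. HPB-ALL and JURKAT also had the widest peaks there, 457 and 482 bp, while DND41, SIL-ALL and REH had 228, 252 and 208 bp. The 4 T-ALL peaks had 137 bp in common. The REH peak was offset to the low side and shared 189 bp with JURKAT but 9 bp with SIL-ALL, so 9 bp were common to all 5 lines. Called in 4 of 4 T-ALL lines and 1 of 3 other lines, the site did not pass the test (exact permutation p = 0.143). With lists limited to 5942 peaks 2 lines kept a peak at this site, and with 1 score floor for all lists 3 lines did.

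A further CD3 peak in JURKAT (118213281 to 118213545, percentile 50.7) and one in HPB-ALL (118214839 to 118214996, percentile 8.5) lay 43.4 and 44.9 kb from the low edge. They did not overlap, and neither was found in another line.

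CD247, the zeta chain that carries most of the receptor's signalling motifs, had more peaks in every T-ALL line than in any other line. DND41, HPB-ALL and SIL-ALL had 3 peaks each and JURKAT 4, against 2 in SUP-B15 and 1 each in K562 and REH, in a window of chromosome 1 from 167395000 to 167493000. The groups did not overlap. The mean was 3.25 ± 0.5 peaks in the T-ALL lines (SD, n = 4) and 1.33 ± 0.577 in the other lines (SD, n = 3), a difference of 1.92 with an unadjusted exact permutation p of 0.0286, the smallest that 35 splits of the lines allow. All 7 lines had a peak, not always at the same place, in 3.36% of the tiles of this length. Of the 30971 tiles of this length, 600 (1.94%) had an exact permutation p below 0.05 with more peaks in T-ALL lines, whatever the size of the difference. A tile needs a peak of every T-ALL line for this, and 5512 tiles had a peak of HPB-ALL, the fewest of any T-ALL line. With lists limited to 5942 peaks, the T-ALL lines had 2 (DND41), 3 (HPB-ALL), 1 (JURKAT) and 1 (SIL-ALL) peaks against 1 (K562), 1 (REH) and 2 (SUP-B15), and the difference of 0.417 no longer passed (exact permutation p = 0.714). With 1 score floor for all lists it was 1.83 (exact permutation p = 0.114). This floor kept 7406 (JURKAT) to 15304 (SIL-ALL) peaks in the T-ALL lines. It kept 2794 (REH) to 3372 (SUP-B15) in the other lines, so it did not even out the list lengths.

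The strongest site of all windows lay in CD247 at 167424010 to 167425661 and was found in 6 of the 7 lines. DND41 had peaks there at percentiles 98.0 and 87.9 (scores 688 and 254), HPB-ALL at 94.2 and 76.0 (566 and 231), SIL-ALL at 85.2 and 0.536 (363 and 80.4) and JURKAT at 62.7 and 22.7 (95.7 and 61.1). Among the other lines, K562 had a single peak at percentile 82.6 (score 191), SUP-B15 had a pair at 43.5 and 33.5 (69.8 and 63.9), and REH had none. DND41 and HPB-ALL supplied the 2 peaks above percentile 90 among all 42. K562 had the widest peak, 1230 bp in 1 piece, and the peaks of DND41 covered 1241 bp in pieces split by a short gap. JURKAT peaks covered 474 bp, the least of the 6 lines, and 161 bp were common to all 6. The difference in calling at this site did not pass the test (4 of 4 T-ALL lines, 2 of 3 other lines, exact permutation p = 0.429).

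A second CD247 site was called in all 4 T-ALL lines and in none of the other 3. It spanned 353 bp from 167443495 to 167443847, near the middle of the window, 48.7 kb from its low edge. Its peaks stood at percentile 55.7 in HPB-ALL (score 150), 54.8 in DND41 (score 105), about 50 in SIL-ALL (score 139) and 21.5 in JURKAT (score 60.5). The JURKAT score was above the floor of its own list but below the lowest scores listed in HPB-ALL and SIL-ALL. The scale of the scores is not stated, so they do not compare binding strength between lines. The peaks were 189 bp (JURKAT) to 252 bp (HPB-ALL) wide, and 62 bp were common to all 4. The unadjusted exact permutation p for calling was 0.0286. The genome held 655 regions of this kind, 2.25% of 29071 merged regions. Of all merged regions, 58.2% had a peak of 1 line alone and could not be of this kind. After Benjamini-Hochberg adjustment over all merged regions this exact permutation p became 0.98, and no region of the genome passed, while 711 regions (2.45%) were under 0.05 unadjusted in either direction. With the lists limited to 5942 peaks, 1 line kept a peak at this site, and with 1 score floor 3 lines did.

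The remaining CD247 peaks belonged to 1 line each. REH, which lacked the 6-line site, had a peak at 167407253 to 167407638 at percentile 67.1, its highest in any window. JURKAT had one at 167487598 to 167487846, at percentile 29.3, 5.28 kb from the high edge. CD247 is transcribed toward lower coordinates in the RefSeq table, so the high edge is the side on which the gene starts.

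**Figure D3:**
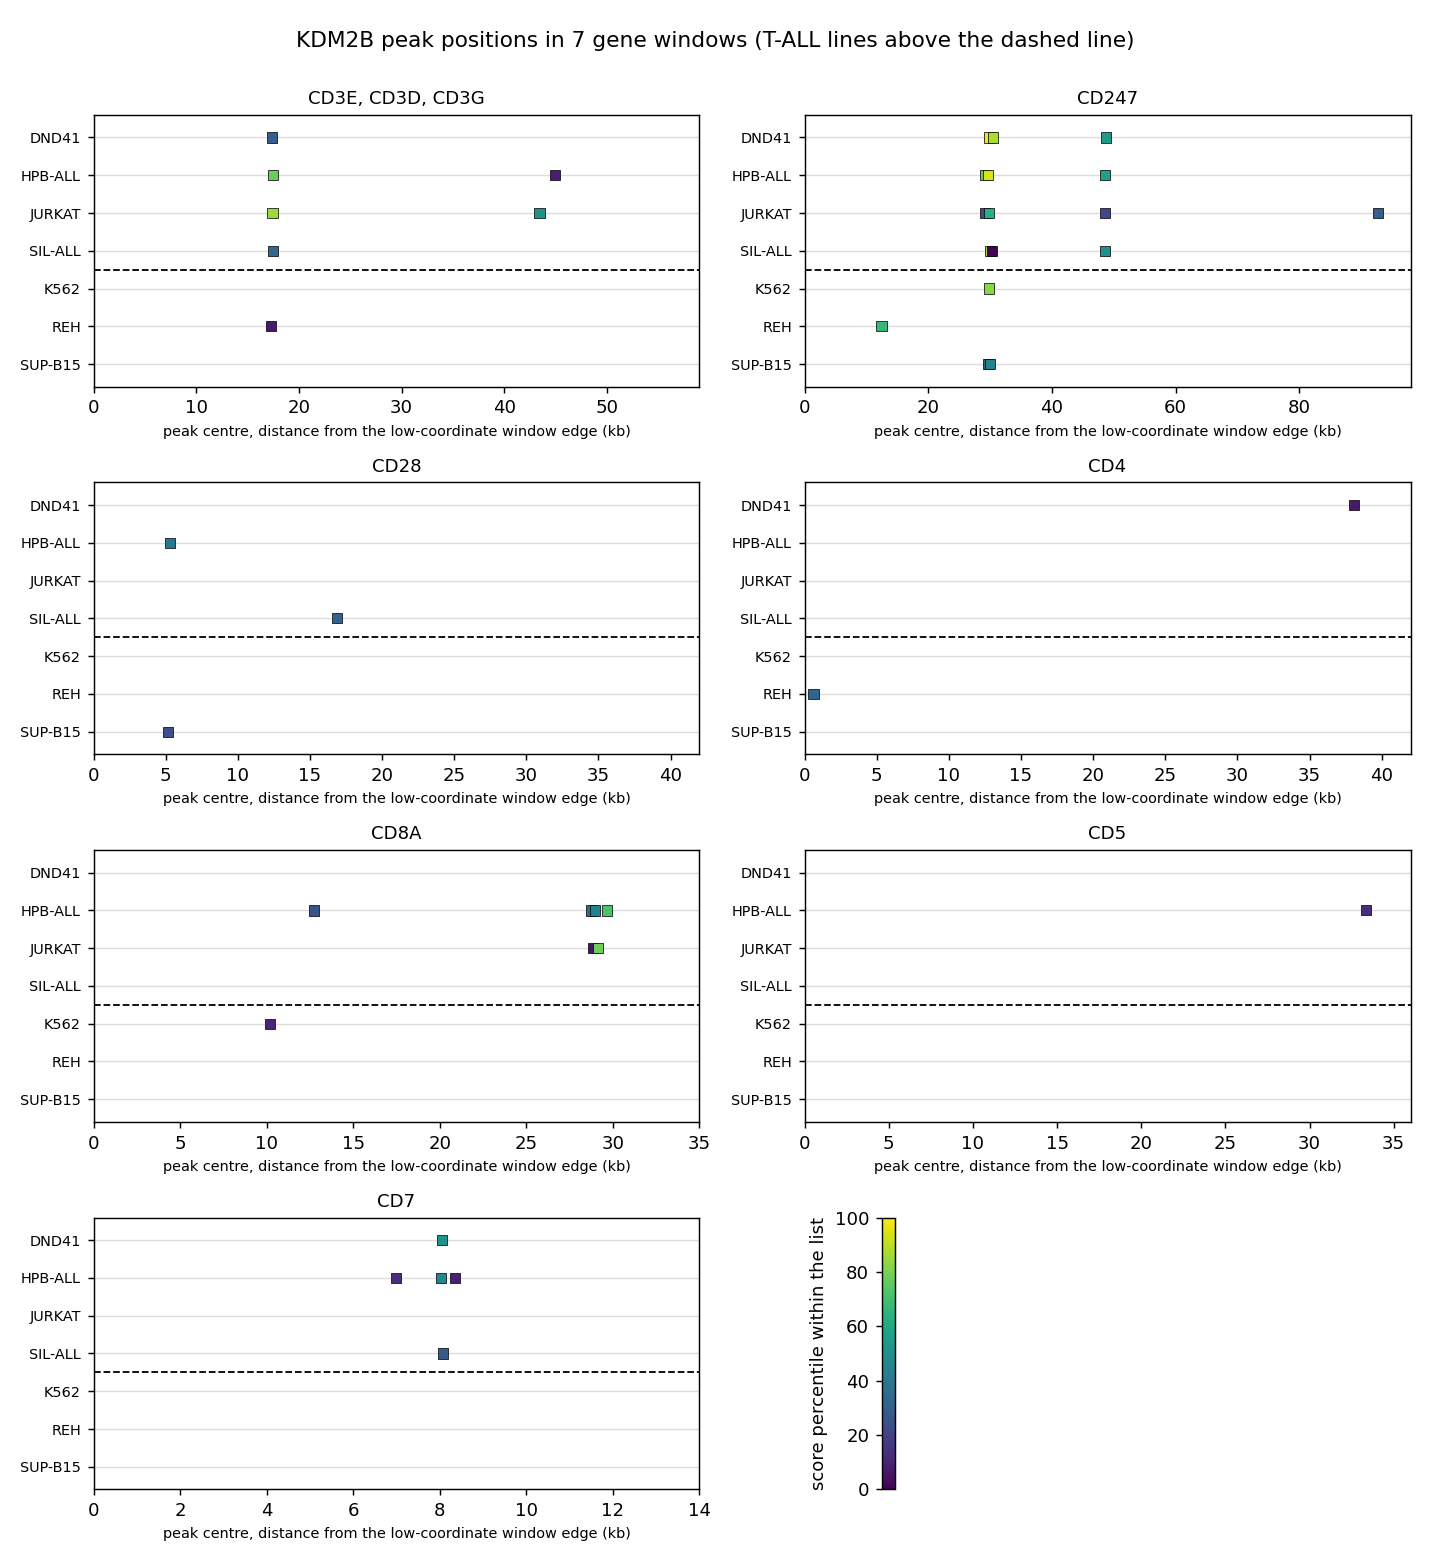
Each square is 1 KDM2B peak, placed by the distance of its centre from the low-coordinate edge of the gene window (horizontal axis, kb) and by cell line (rows, T-ALL lines above the dashed line), with colour giving the score percentile within its list. The columns of squares at 17.4 kb in the CD3 window and at 48.7 kb in the CD247 window include all 4 T-ALL lines, and the CTLA4 window, which had no peak, is not drawn.

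At the co-receptor genes CD4 and CD8A no site was common to all 4 T-ALL lines, and CD4 had few sites. CD8A encodes the alpha chain of CD8, which binds MHC class I. Its window (chromosome 2, 87006000 to 87041000) had 4 peaks in HPB-ALL, 2 in JURKAT and 0 in DND41 and SIL-ALL, against 1 in K562 and 0 in REH and SUP-B15. The mean of 1.5 ± 1.91 in the T-ALL lines (SD, n = 4) and 0.333 ± 0.577 in the other lines (SD, n = 3) differed by 1.17 (exact permutation p = 0.543), by 0.333 without HPB-ALL (exact permutation p = 1), by 0.167 with lists limited to 5942 peaks, and by 0.417 with peaks of a list within 500 bp of each other counted as 1. At least 3 lines had a peak in 7.98% of the tiles of this length.

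HPB-ALL and JURKAT shared a CD8A region at 87034632 to 87035298, 6.04 kb from the high edge, the side of the outermost annotated CD8A start, whose promoter is printed above. Each line had a pair of peaks in it, at percentiles 34.9 and 43.7 in HPB-ALL and 5.42 and 78.0 in JURKAT, and the pairs shared 232 bp. HPB-ALL had its best CD8A peak, percentile 71.3, just beyond this region at 87035449 to 87035893. Both lines also had a peak just outside the window, 11.2 kb above it in HPB-ALL and 11.5 kb in JURKAT, where the nearest peak above the window in the other lines was 593 kb away or more. In RefSeq gene order CD8B, the partner chain, follows CD8A on that side. Other CD8A peaks were single: HPB-ALL at 87018585 to 87018878 (percentile 25.6) and K562 at 87015983 to 87016362 (percentile 10.3). On the low side each of the 7 lists had its nearest peak 155 to 156 kb from the window, so on that side the 4 lines without a CD8A peak had none over that distance.

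CD4, which binds MHC class II, had 1 peak in DND41 and 1 in REH in a window of chromosome 12 from 6893000 to 6935000. The DND41 peak (6931001 to 6931148, percentile 6.89) lay 3.93 kb from the high edge, and the REH peak (6893565 to 6893666, percentile 32.2) lay 0.616 kb from the low edge and was the narrowest of all 42, 102 bp. Both were thus near the ends of the window, where RefSeq order places LAG3 on the low side and GPR162 on the high side. Whether either overlaps CD4 or a neighbour in hg19 was not determined. JURKAT, SIL-ALL, HPB-ALL, K562 and SUP-B15 had none in the window, although the nearest peak of SIL-ALL was 2.43 kb and that of JURKAT 2.48 kb beyond it. The mean was 0.25 ± 0.5 peaks in the T-ALL lines (SD, n = 4) and 0.333 ± 0.577 in the other lines (SD, n = 3; exact permutation p = 1). In 12.4% of the tiles of this length at least 2 lines had a peak, at the same place or not.

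The costimulatory pair split into a gene with scattered sites and a gene with none. CD28, the activating receptor for CD80 and CD86, had 1 peak in HPB-ALL and 1 in SIL-ALL, against 1 in SUP-B15, in a window of chromosome 2 from 204566000 to 204608000. The HPB-ALL and SUP-B15 peaks overlapped by 101 bp at 204571076 to 204571378, at percentiles 40.2 and 23.6, and lay 5.23 kb from the low edge, the side on which CD28 starts. The SIL-ALL peak was separate, at 204582782 to 204582989 (percentile 31.6). The mean was 0.5 ± 0.577 peaks in the T-ALL lines (SD, n = 4) and 0.333 ± 0.577 in the other lines (SD, n = 3; exact permutation p = 1), a difference that turned to -0.333 with lists limited to 5942 peaks. In 9.36% of tiles of this length at least 3 lines had a peak, at the same place or not.

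CTLA4, the inhibitory receptor on activated and regulatory T cells, had no peak in its window (chromosome 2, 204727000 to 204744000). The nearest peak was 53.7 kb away in SIL-ALL and 58.0 kb in DND41, 156 kb in HPB-ALL and 231 kb in JURKAT, and among the other lines 156 kb away in SUP-B15, 170 kb in REH and 990 kb in K562. The window is short, and of all tiles of its length 9.11% had a peak of any line, so an empty window is the usual case at this length. Depth is unknown, so weaker binding than the lists' floors was not detectable.

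CD5 and CD7 are surface proteins that appear early in the T lineage and often persist on T-ALL cells. Inside their windows the full lists had peaks of T-ALL lines alone. No line had a peak there when each list was limited to its 5942 top-scored peaks. The B-cell precursor lines had peaks 5.28 to 6.33 kb beyond these windows, so the pattern depends on the window edges. Over the genome, 56.1% of merged regions had peaks of T-ALL lines alone. CD7 had 3 peaks in HPB-ALL, 1 in DND41 and SIL-ALL and 0 in JURKAT, against 0 in each of the other 3 lines, in a window of chromosome 17 from 80267000 to 80281000. The groups overlapped at 0 because of JURKAT. The mean was 1.25 ± 1.26 in the T-ALL lines (SD, n = 4) and 0 in the other lines (n = 3; exact permutation p = 0.143), and without HPB-ALL the difference was 0.667 in place of 1.25 (exact permutation p = 0.4). At least 3 lines had a peak, at the same place or not, in 3.48% of the tiles of this length.

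The DND41, HPB-ALL and SIL-ALL peaks at CD7 coincided at 80274919 to 80275196, 5.94 kb from the high edge, at percentiles 50.5, 46.9 and 28.1. The SIL-ALL peak, 138 bp wide, lay wholly inside the other two. HPB-ALL had a further peak on each side, at 80273892 to 80274082 and 80275272 to 80275441, at percentiles 13.5 and 9.00. The neighbourhood was not empty in the lines without a CD7 peak. JURKAT had one 5.45 kb beyond the window, REH one at 5.28 kb and SUP-B15 one at 6.13 kb, and K562 had none within 95.9 kb.

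CD5, an inhibitory co-receptor of antigen receptor signalling, had 1 peak, in HPB-ALL at 60897274 to 60897461 on chromosome 11 (percentile 12.5), 2.63 kb from the high edge of its window (60864000 to 60900000). In RefSeq order VPS37C follows CD5 on that side, where SUP-B15 had a peak 6.33 kb beyond the window. The other 6 lines had no peak in the window, 16.4% of tiles of this length had a peak of any line, and the difference did not pass the test (0.25 ± 0.5 in T-ALL lines, SD, n = 4; 0 in the other lines, n = 3; exact permutation p = 1).

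**Figure D4:**
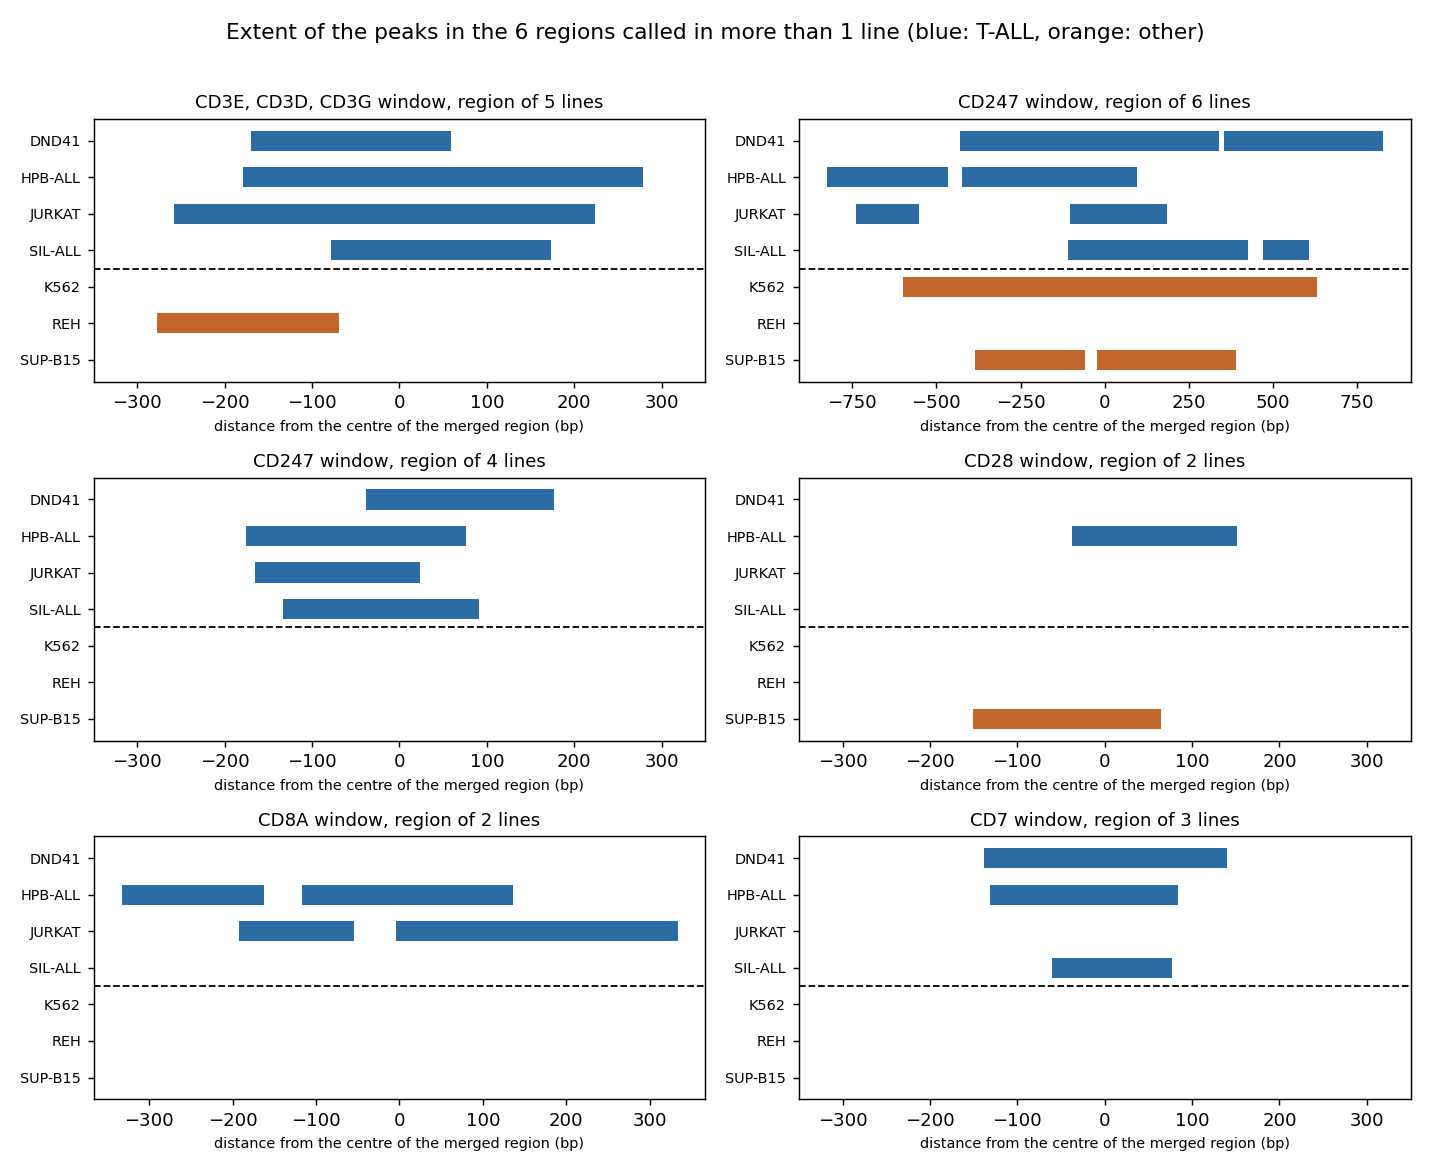
Bars show the extent of each peak (horizontal axis: distance in bp from the centre of the merged region) in the 6 regions called in more than 1 line, with a row per cell line, T-ALL lines in blue above the dashed line and other lines in orange below it. In the CD3 region the REH bar is offset to the low side of the 4 T-ALL bars, which have 137 bp in common, and in the 4-line CD247 region all bars are blue.

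Of the 19 regions, 13 held a peak of 1 line and 6 were shared. The share of regions with 1 line, 68.4%, was near that of all merged regions of the genome, 58.2%. HPB-ALL alone accounted for 6 of those 13. Its part of the single-line regions of the whole genome was not counted, so this number has no background to be judged by. Regions with peaks of T-ALL lines alone numbered 13, also 68.4%, against 56.1% of all merged regions. A further 3 regions had peaks of other lines alone, in REH (CD247 and CD4) and K562 (CD8A), and 3 had both. The T-ALL lists are also the longer ones, and the part of list length in these shares was not tested.

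Of the 42 peaks, 16 stood above the midpoint of their list. The median percentile ran from 32.8 (SIL-ALL) to 52.7 (DND41) over the T-ALL lines and from 32.2 (REH) to 46.5 (K562) over the others. CD247 supplied 10 of the 16 upper peaks, the CD3 window 3, CD8A 2 and 1 came from CD7, and the CD28, CD4 and CD5 windows had none.

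**Figure D5:**
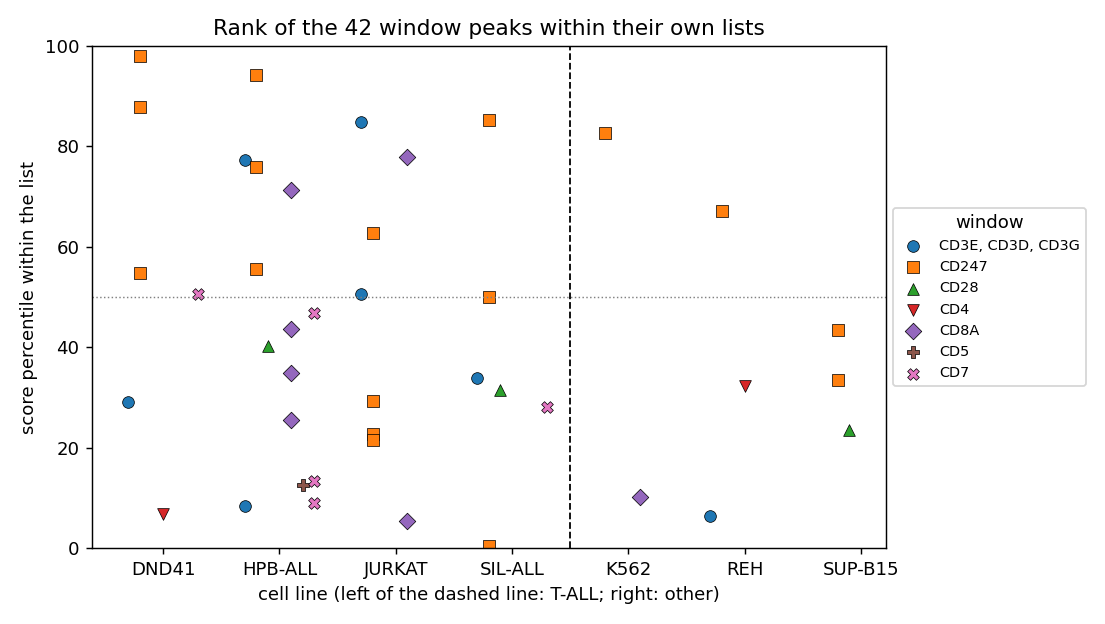
Each symbol is 1 of the 42 peaks, placed by cell line (horizontal axis, T-ALL lines left of the dashed line) and by the percentile of its score within its own list (vertical axis), with the shape and colour giving the gene window. CD247 peaks of DND41 and HPB-ALL stand highest, at 98.0 and 94.2, and the CD28, CD4 and CD5 peaks all lie below the dotted line at 50.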

How the data were processed

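Peak lists of 7 KDM2B ChIP-seq libraries were analysed. Signal of the 5 input libraries did not enter. These inputs were of HPB-ALL, SIL-ALL, K562, REH and SUP-B15, and none was listed for the T-ALL lines DND41 and JURKAT. All other lines thus had an input while only part of the T-ALL lines did, and the bearing of this on their comparison was not tested. FastQC 0.10.1, Bowtie 1.1.1 and the build hg19 are named in the submitters' processing notes. Peak names begin with MACS, per the files; its version, cut-off and control were not given in the sources used here. The score of each peak is the authors' deposited value with no unit stated, and it was used as a rank within its list or as a filter. The depth and enrichment behind each list, which bear on the peaks it holds, are unknown.

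The genes, windows and lists were chosen with earlier results of these data known, and every peak of the windows is accounted for. For each window and region, T-ALL lines were set against the remaining 3 with an exact permutation test (35 splits, two-sided, difference of means). Window tests are unadjusted, and region tests were adjusted over all 29071 merged regions. Tiles were non-overlapping, and hg19 chromosome lengths came from circlize 0.4.16. The merging and test code was tested on simulated data. Alternatives were equal lists, a common score floor (80.03), each list's upper score range, merging within 500 bp, other window edges and each line left out. The common floor left the T-ALL lists longer than the others. Positions count from 1.

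Gene names, order and promoters came from RefSeq GRCh38.p14, another build, so gene starts were not placed in hg19. A planned count over other T-cell receptor signalling genes needed hg19 positions and was not run. Scripts ran in Python 3.11.15 (pandas 2.3.3, numpy 2.4.6, matplotlib 3.10.9).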

Additional observations from a re-analysis of the deposited data

Results flagged for a closer look

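For each window, and for the windows with a peak, it was examined whether 1 of the 7 lines stood far from the others. In all, 9 sets of values were examined. The nominal chance share is about 1 such case in 20, but it need not hold for counts that are mostly 0, where a single peak can set a line apart. HPB-ALL stood apart in the CD7 window, with 3 peaks, where DND41 and SIL-ALL had 1 each and the other lines 0. HPB-ALL also stood apart in the CD5 window, with 1 peak where all other lines had 0, which for a count this small means a single peak at percentile 12.5 of its list. No explanation was tested for either.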

How the results depend on the processing

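The CD247 difference kept its direction but lost the threshold with equal lists of 5942 peaks (0.417 peaks), a common score floor (1.83) and the upper score range of each list, at or above its median (1.33), and held with peaks within 500 bp counted as 1 (1.25; exact permutation p = 0.0286). With each line left out it ranged from 1.67 to 2.25, where 6 lines cannot reach a p under 0.0667 or 0.1 and the threshold is out of reach by construction. The CD28 difference turned to -0.333 with equal lists, and the CD4 difference ranged from -0.333 to 0.25 with each line left out, with 0.25 without REH. The shared CD28 region, in 2 lines, kept 1 line with a common floor and without SUP-B15, which turned the sign of its difference. The number of windows with a peak fell with equal lists to 1 in DND41, 3 in HPB-ALL, 1 in SIL-ALL and 2 in REH. With a common floor it fell to 2 in DND41, 1 in REH and K562 and 0 in SUP-B15. In the upper score range it fell to 2 in DND41, 3 in HPB-ALL, 1 in SIL-ALL, REH and K562 and 0 in SUP-B15. Windows 10 kb longer on each side raised it to 5 in JURKAT and SIL-ALL and to 4 in REH and SUP-B15. The windows gained were CD4 and CD7 in JURKAT, CD4 in SIL-ALL, CD7 in REH, and CD5 and CD7 in SUP-B15. With these edges neither CD5 nor CD7 had peaks of T-ALL lines alone. Equal lists also left a difference of 0 at CD7 and CD5, 0.167 at CD8A and 0.5 at CD3, in place of 1.25, 0.25, 1.17 and 1.17, none of which passed the threshold in either form. The number of windows of a line cannot change when another line is left out. No paired analysis was possible because the lines have a single list each and share no replicate numbers beyond 1.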
